A study of Rattus norvegicus with 6 samples.

Results

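The Fc receptors, the Cd300 receptors and the adaptors that carry their signals were followed in the renal cortex of rats given N-nitrosodimethylamine (NDMA) or water. NDMA is a nitrosamine whose metabolism yields a DNA-methylating agent. The set holds 10 genes, chosen by name: the adaptors Fcer1g and Tyrobp, the immunoglobulin G receptors Fcgr1a, Fcgr2a, Fcgr2b and Fcgr3a, the Cd300 receptors Cd300c2, Cd300le and Cd300lf, and Trem2. Probes were assigned to these genes by the RefSeq transcript accession printed on the array. This gave 15 of the 61657 non-control probes, and the 10 genes are among 15284 genes with a RefSeq name on the array. Fcer1g, Fcgr1a, Fcgr2a, Fcgr2b and Cd300lf each have a pair of probes, called here the brighter and the dimmer by their mean signal over the 6 arrays.

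All 6 animals were Sprague-Dawley males purchased when 5 weeks old. Controls (n = 3) received water for 4 weeks, and treated animals (n = 3) were dosed with NDMA at 4 mg/kg/day over the same 4 weeks. Total RNA of the whole cortex was labelled with Cy3, with 1 array per animal, and the series' design text calls the replicates biological. The samples are a mixture of all cells of the cortex, so more cells of a type and more RNA per cell cannot be told apart.

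Fc receptors bind the constant part of antibodies. The activating ones pass the signal through a short tail motif with paired tyrosines, the immunoreceptor tyrosine-based activation motif (ITAM). It is carried by a separate adaptor for most of them: Fcer1g, the common Fc receptor gamma chain. Tyrobp, also known as DAP12, is an adaptor with this motif for Trem2 and several Cd300 receptors. Src-family kinases phosphorylate the motif, Syk or Zap70 binds to it, and uptake of the antibody-coated particle and a burst of signalling follow. Inhibitory relatives such as Fcgr2b and Cd300lf carry the opposing motif, ITIM, which recruits phosphatases. In the kidney these receptors are known mainly from resident and infiltrating macrophages and dendritic cells, and from their part in immune complex disease.

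The sequences just upstream of the genes are shown because the receptors among the 10 that rose and those that did not can be set side by side on the DNA. RefSeq promoter windows (assembly GRCr8, 250 bases before to 50 bases after a listed start) matched 5 of the 10 genes. The 4 single windows follow, 5′ to 3′ on the gene's strand, with GAGGAA, the core of the site bound by the myeloid factor PU.1, or its reverse complement TTCCTC, in capitals. Trem2 lies at chr9:20151730-20152029 (minus strand), Fcgr3a at chr13:85782386-85782685 (plus strand), Cd300c2 at chr10:100757271-100757570 (minus strand) and Cd300lf at chr10:100874973-100875272 (minus strand).
Trem2: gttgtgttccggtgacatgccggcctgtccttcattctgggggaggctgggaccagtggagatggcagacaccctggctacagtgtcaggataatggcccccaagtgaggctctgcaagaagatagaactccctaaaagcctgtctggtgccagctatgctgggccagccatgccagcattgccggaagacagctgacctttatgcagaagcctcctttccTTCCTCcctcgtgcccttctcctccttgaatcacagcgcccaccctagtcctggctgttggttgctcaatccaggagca
Fcgr3a: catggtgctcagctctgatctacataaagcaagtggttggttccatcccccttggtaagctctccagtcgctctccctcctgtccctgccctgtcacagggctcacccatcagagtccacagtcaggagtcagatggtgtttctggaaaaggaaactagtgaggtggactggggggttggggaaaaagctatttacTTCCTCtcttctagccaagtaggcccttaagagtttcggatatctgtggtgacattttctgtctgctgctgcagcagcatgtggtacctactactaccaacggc
Cd300c2: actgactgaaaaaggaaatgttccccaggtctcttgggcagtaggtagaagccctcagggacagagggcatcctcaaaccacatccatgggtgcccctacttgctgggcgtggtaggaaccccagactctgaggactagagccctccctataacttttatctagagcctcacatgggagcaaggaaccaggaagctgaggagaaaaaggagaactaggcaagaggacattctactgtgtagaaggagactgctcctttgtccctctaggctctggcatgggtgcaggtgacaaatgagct
Cd300lf: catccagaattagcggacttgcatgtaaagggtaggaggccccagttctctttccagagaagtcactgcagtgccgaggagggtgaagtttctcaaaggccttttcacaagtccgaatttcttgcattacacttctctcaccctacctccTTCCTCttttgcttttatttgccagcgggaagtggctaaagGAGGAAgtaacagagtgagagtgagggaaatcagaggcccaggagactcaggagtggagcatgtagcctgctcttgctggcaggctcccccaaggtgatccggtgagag

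GAGGAA was searched on both strands and was found in 4 of the 5 genes with a window, including Fcgr2a, and in 27.6% of all 33469 promoter windows of this length. In Trem2 it started 29 bases before the start and in Fcgr3a 54 bases before it, both on the opposite strand. Cd300lf held it at 100 bases before the start on the opposite strand and at 59 bases on its own strand, while the Cd300c2 window held none. TTCNNNGAA, the interferon-gamma activated site, was in 0 of the 5 and in 8.87% of all windows, and TGACTCA, the AP-1 site, in 0 of the 5 and in 4.63%. On the arrays Trem2 and Fcgr3a, with a match, and Cd300c2, without one, rose. Cd300lf and the brighter probe of Fcgr2a, both genes with matches, did not pass the test. Whether the matches bear on these changes was not tested. A match describes letters only, and no binding was measured here.

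On each array 43016 to 46248 probes were well above background and 0 to 4 spots were saturated, with no saturated spot among the members. Slide 1 carried the 3 controls together with NDMA animal 1, and slide 2 carried NDMA animals 2 and 3. Correlations of log2 signal across probes, which are not independent replicates, were 0.992 to 0.994 within groups and 0.985 to 0.990 between them. The tissue label was checked on 8 proximal tubule markers, all well above background in every animal. Signals below are processed intensities divided by the array's own 75th percentile, so that 1 is the level of a probe at that percentile. Differences are NDMA minus control in log2, given with limma's moderated standard error (SE), and the adjusted p is Benjamini-Hochberg over the 43118 probes tested, with a threshold of 0.05.

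Of the 10 genes, 8 rose after NDMA and 0 fell, by their brighter or only probe: Fcer1g, Tyrobp, Fcgr1a, Fcgr2b, Fcgr3a, Cd300c2, Cd300le and Trem2. The increases ran from 0.87 for Fcgr1a to 1.91 for Cd300c2. Fcgr2a, by its brighter probe, and Cd300lf did not pass. Of the 8, Cd300le was well above background in 1 of 3 controls and entered the test through the NDMA group alone; 7 rose where all 6 arrays had to be well above background, and 7 with normexp background correction. Among all 12175 named genes tested, 434 rose, or 3.56%, and 59 fell, or 0.485%. The median difference was 1.20 over the members and -0.04 over all named genes. In the same 8 genes every NDMA animal lay above every control, which held for 12.0% of named genes. Among probes, 11 of the 14 member probes tested rose, against 2.50% of all probes tested (1080), while 0 fell, against 0.485% (209). The other member probe, the dimmer one of Cd300lf, was well above background in 1 of 3 animals of each group and was not tested. The set was proposed with results of these data known, so the counts describe the members and are not independent evidence.

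**Figure D1:**
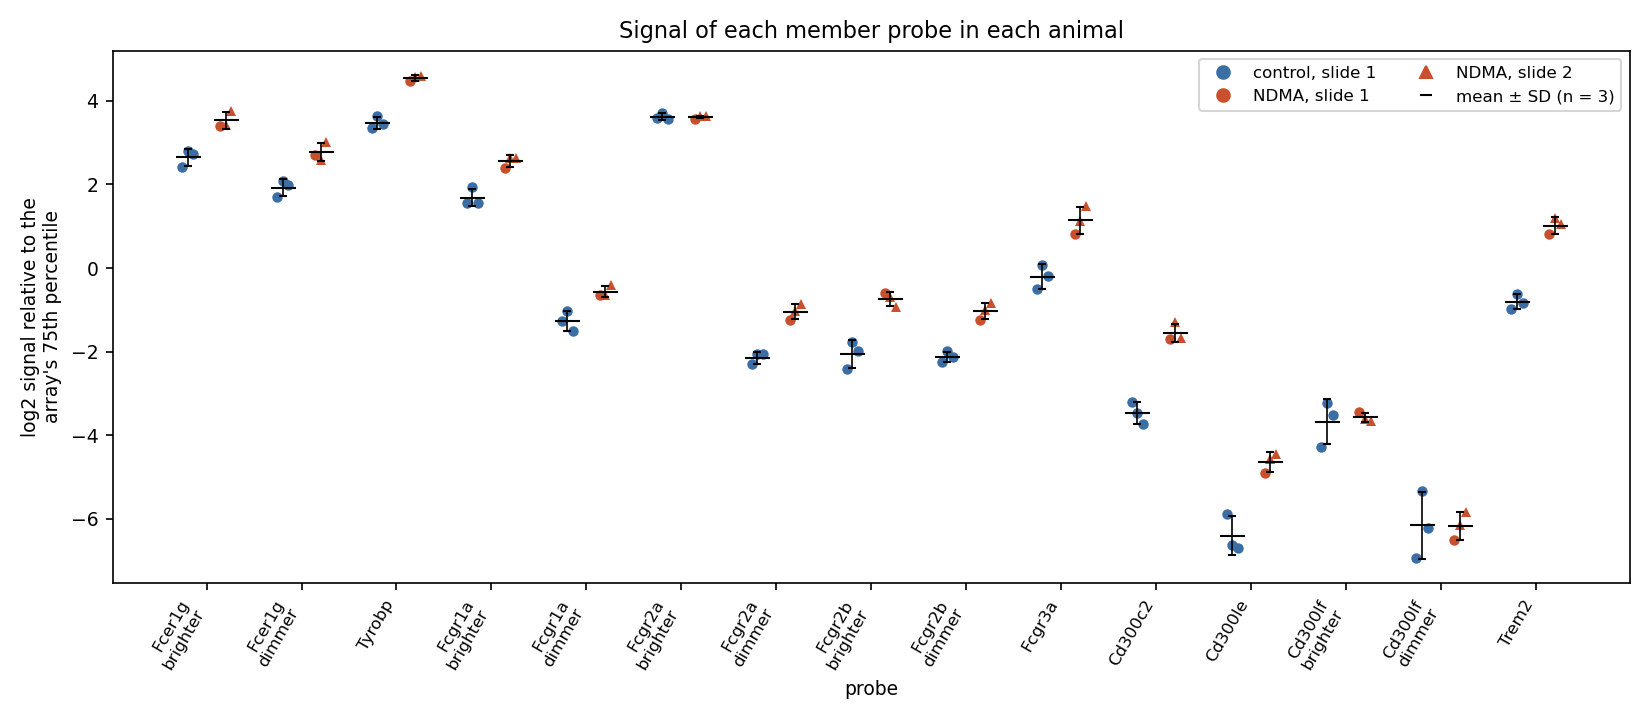
Log2 signal of each of the 15 member probes relative to its array's 75th percentile (vertical axis), per animal, with the mean and SD of each group (n = 3); blue is water control, red is NDMA, and triangles mark the animals on slide 2. The groups are apart for 12 probes and overlap for the brighter Fcgr2a probe and both Cd300lf probes.

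Tyrobp, the adaptor shared by Trem2, several Cd300 receptors and natural killer cell receptors, read 10.2, 12.4 and 10.8 in the controls and 22.1, 23.7 and 24.3 in the NDMA animals. The lowest NDMA animal was 0.83 (log2) above the highest control. The difference was 1.07 ± 0.10 (SE), a 2.10-fold rise, with an adjusted p of 0.00736. Fcer1g, the gamma chain that Fcgr1a and Fcgr3a need to signal, read 5.38, 6.98 and 6.59 in the controls and 10.6, 10.8 and 13.6 after NDMA by its brighter probe. Its groups did not overlap either, and NDMA animal 3 was the highest. The rise was 0.88 ± 0.15, or 1.85-fold (adjusted p = 0.0338). The dimmer Fcer1g probe gave 3.24, 4.22 and 3.96 against 6.47, 6.04 and 8.08, a difference of 0.85 ± 0.15 (adjusted p = 0.0427), so both probes rose. The rise of Fcer1g minus that of Tyrobp, taken within each animal, averaged -0.19 and lay at -0.24, -0.32 and -0.01 in the 3 NDMA animals. An exact two-sided permutation test gave p = 0.2 for it, where 3 animals against 3 cannot go below 0.1, and 0.24 after adjustment over the 6 pairs of genes compared in this way.

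Among the receptors for immunoglobulin G, Fcgr1a, the high-affinity receptor, read 2.96, 3.81 and 2.94 in the controls and 5.29, 6.19 and 6.24 after NDMA by its brighter probe. All 3 treated animals stood above all controls. The difference was 0.87 ± 0.13, or 1.83-fold (adjusted p = 0.0277). Its dimmer probe read 0.416, 0.493 and 0.352 against 0.638, 0.642 and 0.757 and also did not overlap, but at 0.70 ± 0.15 its adjusted p of 0.0667 missed the threshold. Fcgr3a, a low-affinity activating receptor that RefSeq also lists as Fcgr4, read 0.704, 1.06 and 0.870 in the controls. After NDMA it read 1.77, 2.17 and 2.78, so the treated animals differed among themselves more than for Fcgr1a. The rise was 1.35 ± 0.21, or 2.55-fold (adjusted p = 0.0289).

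Fcgr2b, the inhibitory receptor of the family, rose as well. By its brighter probe it read 0.188, 0.293 and 0.253 in the controls and 0.662, 0.619 and 0.526 after NDMA, a difference of 1.32 ± 0.18, or 2.49-fold (adjusted p = 0.0203). Its dimmer probe read 0.211, 0.251 and 0.228 against 0.426, 0.496 and 0.560, a difference of 1.10 ± 0.13 (adjusted p = 0.0123). The animals were ordered differently by the 2 probes: NDMA animal 1 was the highest of its group by the brighter and the lowest by the dimmer. The activating Fcgr3a and the inhibitory Fcgr2b, by its brighter probe, rose by amounts that were not told apart. The within-animal difference averaged 0.03, with NDMA animals at -0.43, -0.04 and 0.55 (exact permutation p = 0.9, adjusted 0.9), and 0.21 with normexp. The dimmer Fcgr2b probe changed by 0.89, 1.11 and 1.29, less than Fcgr3a in each NDMA animal (1.03, 1.33 and 1.68). That pairing was not tested. Fcgr1a minus Fcgr2b, both by the brighter probe, averaged -0.44 (exact permutation p = 0.2, adjusted 0.24).

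Fcgr2a was the one receptor whose probes disagreed. RefSeq also lists this rat gene as Fcgr3, a low-affinity activating receptor. The brighter probe read 11.9, 13.1 and 11.8 in the controls and 11.9, 12.4 and 12.4 after NDMA, and the groups overlapped. Its difference was -0.0049 ± 0.08 with an adjusted p of 0.981. The dimmer probe read 0.202, 0.239 and 0.239 in the controls and 0.424, 0.490 and 0.550 after NDMA, with no overlap. That difference was 1.10 ± 0.13, or 2.15-fold (adjusted p = 0.0119). Within each NDMA animal the dimmer probe's change exceeded the brighter probe's by 0.95, 1.11 and 1.27, where the controls lay between -0.12 and 0.14. By the brighter probe, Fcgr2a minus Fcgr2b averaged -1.32, the smallest exact permutation p possible (0.1, adjusted 0.2).

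The per-animal changes of the dimmer Fcgr2a probe, 0.91, 1.12 and 1.28, were nearly those of the dimmer Fcgr2b probe, 0.89, 1.11 and 1.29. Fcgr2al1, the neighbouring Fcgr2a-like gene named here after its values were seen, has 3 probes, which rose by 1.01 ± 0.13, 0.98 ± 0.10 and 1.09 ± 0.14 (adjusted p = 0.0146, 0.00936 and 0.0152). The transcripts of these neighbours are close relatives. Whether a probe named for one of them binds another was not tested, so the identity of the dimmer Fcgr2a signal and of the others is uncertain to that extent.

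**Figure D2:**
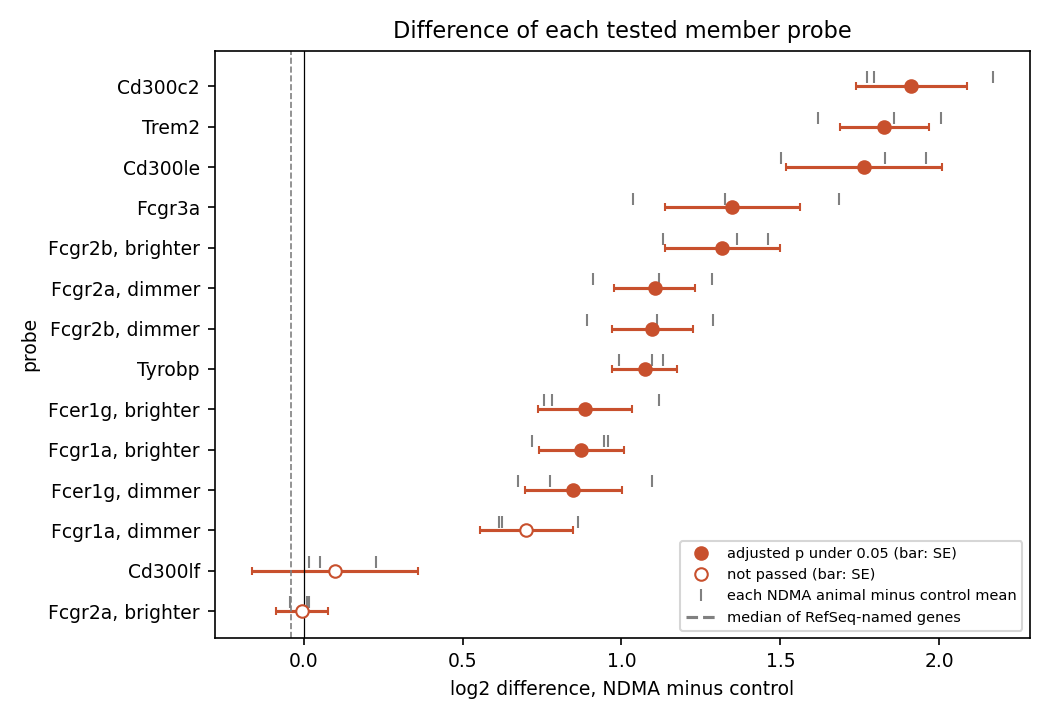
Log2 difference, NDMA minus control, of the 14 member probes tested (horizontal axis), with SE bars; filled points passed an adjusted p of 0.05, grey ticks are single NDMA animals minus the control mean, and the dashed line is the median of named genes, -0.04. Cd300c2, Trem2 and Cd300le stand at 1.76 to 1.91, while Cd300lf and the brighter Fcgr2a probe lie at 0.10 and -0.0049.

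The Cd300 receptors are a family of surface proteins of myeloid cells, several of which bind lipids exposed on dying cells. Cd300c2 read 0.109, 0.0905 and 0.0752 in the controls and 0.309, 0.407 and 0.315 after NDMA. The lowest treated animal stood 1.50 (log2) above the highest control, the widest gap among the members. The rise was 1.91 ± 0.17, or 3.76-fold (adjusted p = 0.00736), and 0.674% of named genes had a larger difference. With normexp background correction the Cd300c2 difference was 1.35 and still passed (adjusted p = 0.0027), but it was smaller than that of Trem2, 1.77. Cd300le read 0.0171, 0.0102 and 0.00957 in the controls, where it was well above background in 1 of 3 animals, and 0.0335, 0.0421 and 0.0461 after NDMA, where it was so in all 3. Its difference was 1.76 ± 0.25 (adjusted p = 0.0208), which has no firm baseline in the controls, so no fold is given. With normexp background correction, which adds an offset and so shrinks the differences of dim probes, it was 0.36 with an adjusted p of 0.0713, so neither its size nor its call held there.

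Cd300lf, an inhibitory member of the family, read 0.0516, 0.107 and 0.0876 in the controls and 0.0918, 0.0812 and 0.0794 after NDMA by its brighter probe. The treated animals lay inside the range of the controls. The difference was 0.10 ± 0.26 with an adjusted p of 0.869, and its sign changed with normexp correction (-0.03) and without control animal 1 (-0.20). The controls spread more for this probe than the NDMA animals, with SDs of 0.54 and 0.11. Cd300lf minus Cd300le averaged -1.66 within animals, again the smallest exact permutation p possible (0.1, adjusted 0.2), and -0.39 with normexp. Cd300le was well above background in 1 of 3 controls and was kept through the NDMA group alone. Control values of this pair ran from -1.13 to 0.66. The pair thus has no firm baseline, and nothing is concluded from its test.

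Trem2, the lipid and lipoprotein receptor that signals through Tyrobp, had the smallest adjusted p of the members. It read 0.510, 0.651 and 0.557 in the controls and 1.75, 2.29 and 2.06 after NDMA. The treated animals were far above the controls, 1.43 (log2) apart at the nearest. The rise was 1.83 ± 0.14, or 3.55-fold (adjusted p = 0.00596), and 0.789% of named genes had a larger difference. The receptor's change exceeded that of its adaptor in every NDMA animal: Trem2 minus Tyrobp was 0.63, 0.91 and 0.73 in the NDMA animals and -0.04, 0.03 and 0.00 in the controls. The mean of 0.75 had an exact permutation p of 0.1, the smallest possible, and 0.2 adjusted. Among the other members the share of named genes with a larger difference was 1.75% for Fcgr3a, 1.86% for Fcgr2b, 3.13% for Tyrobp, 4.27% for Fcer1g and 4.37% for Fcgr1a. It was 26.1% for Cd300lf and 42.2% for the brighter Fcgr2a probe.

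The same animals were high for most members. The median member change against the control mean was 1.01, 1.21 and 1.13 in the NDMA animals and lay between -0.14 and 0.18 in the controls. NDMA animal 1, the only treated animal on the controls' slide, had changes of 0.72 to 1.77 over the 8 genes that rose. With slide as a block 0 of the 10 genes passed in limma. Slide 2 held only NDMA animals, so that fit, like slide 1 alone, takes its difference from NDMA animal 1 against the 3 controls. These fits are therefore not separate checks, and slide and treatment cannot be told apart for NDMA animals 2 and 3. With slide as a block all 8 had an unadjusted p under 0.05, and the smallest adjusted p among them was that of Trem2, 0.0583. The same fit called 82 probes of all (4291 at an unadjusted p under 0.05), against 1289 (7882) without the slide.

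The calls of Tyrobp, Cd300c2 and Trem2 held when any 1 animal was left out. The number of members that rose was 5 without control 1, 6 without control 2, 3 without control 3, 6 without NDMA animal 1, 3 without NDMA animal 2 and 3 without NDMA animal 3. Fcer1g passed in 0 of these 6 fits, with adjusted p between 0.0668 and 0.0971. Fcgr1a and Fcgr3a passed without control 2 and without NDMA animal 1, and otherwise had an adjusted p of 0.0863 to 0.104 and of 0.0776 to 0.108. Fcgr2b passed without control 1 and without control 2 (otherwise 0.0542 to 0.0848), and Cd300le without control 1 and without NDMA animal 1 (otherwise 0.0630 to 0.0878). The dimmer probe of Fcgr2a lost its call without NDMA animal 2 (0.0522), and the dimmer probe of Fcgr2b without NDMA animal 2 (0.0532) and without control 1 (0.0523). All of these differences stayed above 0 in these fits.

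Most macrophage markers measured rose beside the members. Of 11 macrophage markers measured, 8 rose and 0 fell (median 1.13): Cd68, a lysosomal glycoprotein, by 1.48 ± 0.13, the complement chain C1qb by 1.33 ± 0.12 and the mannose receptor Mrc1 by 1.46 ± 0.23. The receptor Csf1r rose by 0.49 ± 0.08, while Adgre1 (0.15 ± 0.17), Cx3cr1 (0.14 ± 0.17) and Itgam (0.81 ± 0.59) did not pass. The summed macrophage signal was 26.8 to 32.7 in the controls and 62.2 to 74.3 after NDMA, and Cd163 and Marco were on the array but not well above background in a full group. Dendritic cell markers had 3 of 5 higher and a median of 1.42, with a summed signal of 0.318 to 0.410 against 0.862 to 1.12. Xcr1 among them was not well above background in any control. The part of cell numbers in the members' rise was not tested.

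Marker lists of other blood cell types gave mixed values. T cell markers had 8 of 11 higher, a median of 1.31 and a summed signal of 2.03 to 2.77 against 6.19 to 7.01. Of 6 natural killer cell markers, 0 passed in either direction, with a median of -0.07 and overlapping sums of 2.30 to 2.88 and 2.31 to 2.67. Of 4 neutrophil markers measured, 0 passed, with a median of -0.05 and sums of 0.463 to 1.34 and 0.592 to 0.819. Mast cell markers had 2 of 7 higher, Mcpt1 and Cma1, with 6 of 7 differences above 0 and a median of 0.79. Their sums were 2.48 to 2.73 and 2.41 to 3.20. Most of each sum was Tpsab1, at 2.03 to 2.22 in the controls and 1.78 to 1.96 after NDMA, which did not pass. No control had Cma1 or Cpa3 well above background, and 2 of 3 had Mcpt1 so. B cell markers had 2 of 6 higher, Blk and Cd37, with a median of 0.49 and sums of 1.05 to 1.38 and 1.06 to 1.22, and Blk was not well above background in any control. Pax5 made up most of each B cell sum, at 0.850 to 1.22 in the controls and 0.740 to 0.956 after NDMA, and did not pass. Platelet markers had 0 of 3 passing, with a median of 0.06. Their part in the members' rise was not tested.

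Markers of the kidney itself were followed too. Of the 8 proximal tubule markers, Lrp2, the endocytic receptor megalin, fell by 0.57 ± 0.10 (adjusted p = 0.0439), the other 7 did not pass, and the list median was -0.30. Their summed signal was 1353 to 1429 in the controls and 1026 to 1192 after NDMA. Markers of other kidney segments had 0 of 6 passing and a median of -0.09, and those of endothelium and stroma 0 of 5 and a median of -0.08.

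The kinases and adaptors that read an ITAM were followed in a list of 26, of which 23 were measured. Of these, 10 rose and 0 fell; the median was 0.79. Zap70, the Syk-family kinase of T and natural killer cells, read 0.366, 0.443 and 0.362 in the controls and 0.869, 0.865 and 0.940 after NDMA, a rise of 1.20 ± 0.11 (adjusted p = 0.00736). Nckap1l, a leukocyte subunit of the actin-regulating WAVE complex, rose by 1.07 ± 0.11 (adjusted p = 0.00906), and Lcp2, the scaffold SLP-76, by 1.38 ± 0.14 (adjusted p = 0.00911). Others that rose included the Src-family kinase Fyn (0.45 ± 0.08), the Tec kinase Btk (1.46 ± 0.20), the exchange factor Vav1 (1.53 ± 0.22), Rac2, Lat and Card9. Syk, the kinase that binds the motifs of Fcer1g and Tyrobp in myeloid cells, read 0.197, 0.272 and 0.206 in the controls and 0.230, 0.276 and 0.335 after NDMA, and the groups overlapped. Its difference of 0.31 ± 0.18 had an adjusted p of 0.403, and its other tested probe gave 0.17 ± 0.14 (adjusted p = 0.526). The count fell from 10 to 6 without control 2 and to 5 without NDMA animal 2 or 3, and was 6 with no detection filter and 0 with slide as a block.

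A list drawn up for the opposing arm held ITIM receptors, phosphatases and related genes. Of 23 measured, 9 rose and 0 fell (median 0.97). Among the 9, Cd200r1 was well above background in 2 of 3 controls and Dok2 in 1 of 3. Both entered the test through the NDMA group alone. The lectin receptor Clec4a3 rose by 1.15 ± 0.11 (adjusted p = 0.00736), the sialic acid receptor Siglec1 by 1.98 ± 0.21 (adjusted p = 0.0102) and the CD200 receptor Cd200r1 by 1.54 ± 0.17 (adjusted p = 0.0105). Siglec1 is an adhesion receptor without an ITIM, and Cd200r1 signals through Dok adaptors in place of one, so these members of the list are not ITIM receptors. Siglec1 read 0.0751, 0.0847 and 0.0708 in the controls and 0.216, 0.368 and 0.347 after NDMA, so its treated animals were all far above the controls. Inpp5d, the lipid phosphatase SHIP1 that Fcgr2b recruits, rose by 0.81 ± 0.10 (adjusted p = 0.0126) by its brightest probe, and its other probes gave 0.35 (adjusted p = 0.14) and 1.03 (adjusted p = 0.0268). Ptpn6, the tyrosine phosphatase SHP-1, read 8.28, 9.60 and 9.06 against 11.2, 12.3 and 12.8, and its 0.43 ± 0.10 missed the threshold (adjusted p = 0.0837) although the groups did not overlap. Cd300a, an inhibitory Cd300 receptor, read 0.188, 0.211 and 0.213 against 0.669, 0.661 and 0.326. With NDMA animal 3 at under the level of the others, its 1.36 ± 0.28 also missed it (adjusted p = 0.0661). The count was 5 without control 1, 5 without NDMA animal 1, 4 without NDMA animal 2, 5 without NDMA animal 3 and 1 with slide as a block, and it was 5 with no detection filter and 15 with a trended and robust variance.

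**Figure D3:**
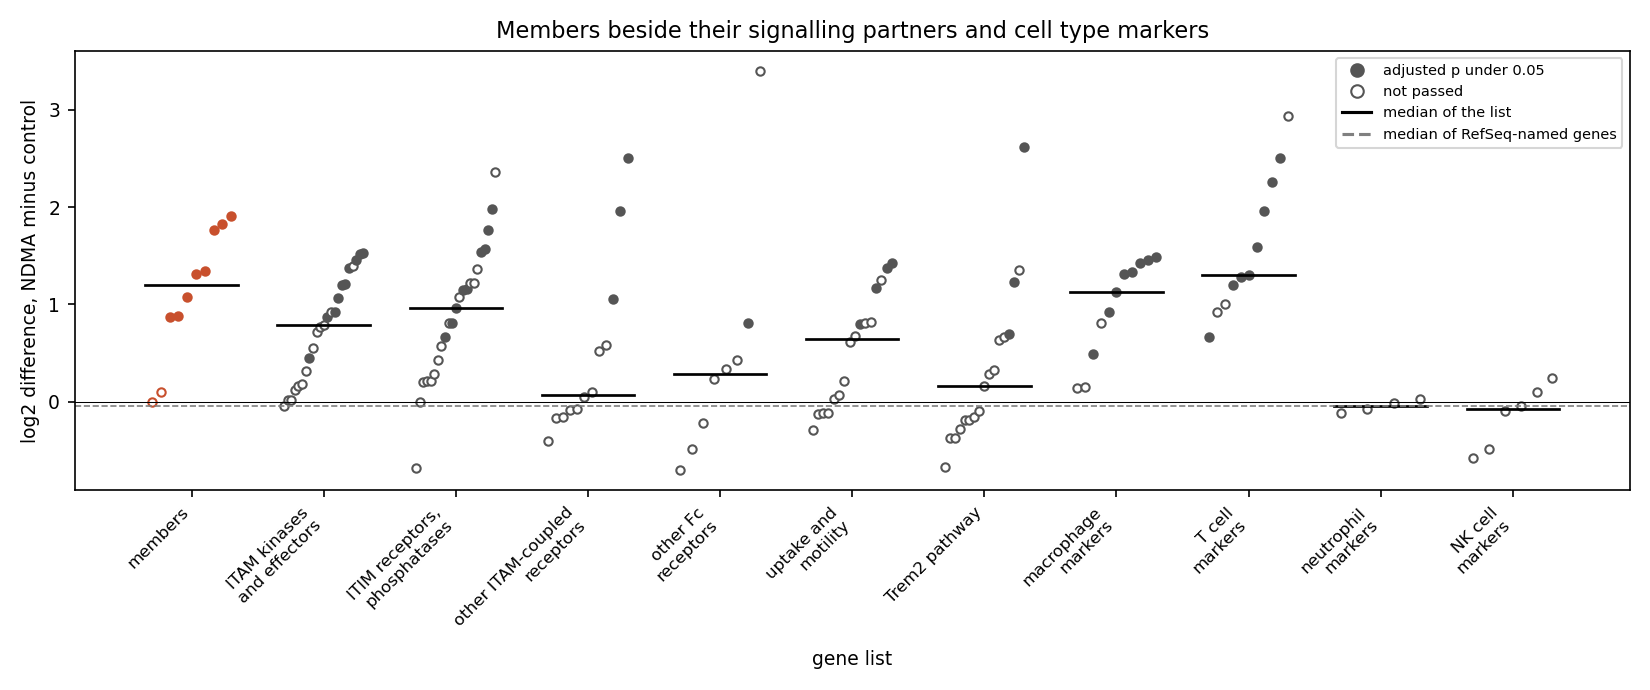
Log2 difference, NDMA minus control, of every measured gene (points) in the members, 6 pathway lists and 4 marker lists; filled points passed an adjusted p of 0.05, bars are list medians and the dashed line is the median of named genes. The ITAM kinase, ITIM and macrophage lists have medians of 0.79, 0.97 and 1.13, and the neutrophil and natural killer lists lie at -0.05 and -0.07.

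A further list held other ITAM-coupled receptors, receptor chains with ITAMs of their own and the adaptor Hcst. Of 32 listed, 12 were measured, 3 rose and 0 fell (median 0.07). The 3 were Hcst, also known as DAP10, an adaptor that signals without an ITAM (1.06 ± 0.10, adjusted p = 0.00758), and the T cell receptor chains Cd247 (1.96 ± 0.13, adjusted p = 0.00533) and Cd3e (2.51 ± 0.34, adjusted p = 0.0192). Cd3e was well above background in 2 of 3 controls and entered the test through the NDMA group alone. Trem1, the inflammatory relative of Trem2, was well above background in 0 controls and 1 NDMA animal and was not tested. Cd300lg, a Cd300 relative of endothelium, had probes at -0.16 ± 0.09 (adjusted p = 0.398), 0.53 and 0.19, none past the threshold. The count was 0 with slide as a block.

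Among 8 measured Fc receptors of other classes 1 rose and 0 fell, with a median of 0.28. It was Fcrla, an Fc receptor-like protein of B cells (0.81 ± 0.12, adjusted p = 0.0262), whose call was lost without control 1, 2 or 3 or NDMA animal 1, with no detection filter and with slide as a block. Fcgrt, the neonatal Fc receptor that carries immunoglobulin G and albumin across epithelia, read 9.03, 8.91 and 8.49 against 7.73, 6.92 and 8.11, with every NDMA animal below every control. Its difference of -0.22 ± 0.09 did not pass (adjusted p = 0.274). Fcer1a and Ms4a2, the other chains of the mast cell immunoglobulin E receptor that also holds Fcer1g, had no probe well above background in a control. Ms4a2 had none in an NDMA animal either, and Fcer1a was so in at most 2 of 3.

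Genes tied to Trem2 by studies of lipid-handling macrophages were split. Of 17 measured, 3 rose and 0 fell (median 0.16). Gpnmb, a glycoprotein of phagocytes, read 0.169, 0.179 and 0.185 in the controls and 0.782, 1.15 and 1.44 after NDMA, a rise of 2.62 ± 0.22 (adjusted p = 0.00679). The cysteine protease inhibitor Cst7 rose by 1.23 ± 0.11 (adjusted p = 0.00736) and the galectin Lgals3 by 0.69 ± 0.11 (adjusted p = 0.0282). Apoe, a lipoprotein ligand of Trem2, was at -0.37 ± 0.10 (adjusted p = 0.136), and Spp1, osteopontin, at 1.36 ± 0.55 (adjusted p = 0.267). With slide as a block 1 of the list passed.

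Genes of immune complex uptake and leukocyte motility had 4 of 16 higher and 0 lower, with a median of 0.64. Coro1a, an actin-binding protein of phagosomes, rose by 1.37 ± 0.11 (adjusted p = 0.00658), the integrin chain Itgb2 by 1.17 ± 0.18 (adjusted p = 0.0284) and the pore-forming Mpeg1 by 1.42 ± 0.24 (adjusted p = 0.0335), and the oxidase subunit Ncf1 rose by 0.80 ± 0.14. This count was 2 without control 2 or NDMA animal 1, 1 without any other single animal or with no detection filter and 0 with slide as a block. Of 16 immunoglobulin and plasma cell entries, only 4 were measured (Igll1, Derl3, Xbp1 and Sdc1) and 9 were not matched to a symbol. No immunoglobulin heavy or kappa chain gene and no Jchain was among the 4, so the genes of the antibody itself were not assessed. Derl3, of the endoplasmic reticulum of secretory cells, rose by 1.43 ± 0.16 (adjusted p = 0.0111), the median was 0.63, and 2 passed without NDMA animal 1 or with a trended and robust variance and 0 with slide as a block.

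Fcgr1a stands apart, but the other members lie in a few gene clusters, and none of the unrelated genes named here between or beside them passed the test. In the order of RefSeq, Fcrla, Fcgr2b, Fcgr3a, Fcgr2a and Fcgr2al1 stand side by side. Beyond them Cfap126 was at -0.05 ± 0.23, Sdhc at -0.22 ± 0.09, Nr1i3 at 0.03 ± 0.14 and Tomm40l at -0.25 ± 0.09, none past the threshold, before Fcer1g. In the Cd300 cluster, Gprc5c at its edge was at -0.21 ± 0.10 and Nherf1 at the other edge at -0.32 ± 0.14. Between them an Igsf7-like gene rose by 1.34 ± 0.20 (adjusted p = 0.0268) near Cd300c2 and Cd300le. Cd300c, which has no probe, lies between the Igsf7-like gene and Cd300c2, and other genes of the cluster had no tested probe either. Tyrobp lies beside Hcst, the other adaptor, which rose as much (1.06 ± 0.10), while the outer neighbours Lrfn3 (-0.21 ± 0.36) and Aplp1 (-0.31 ± 0.15) did not pass. Around Trem2, Treml1 was at 0.05 ± 0.17, Treml2 at -0.40 ± 0.33 and Trem3 at 0.58 ± 0.16 (adjusted p = 0.13).

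**Figure D4:**
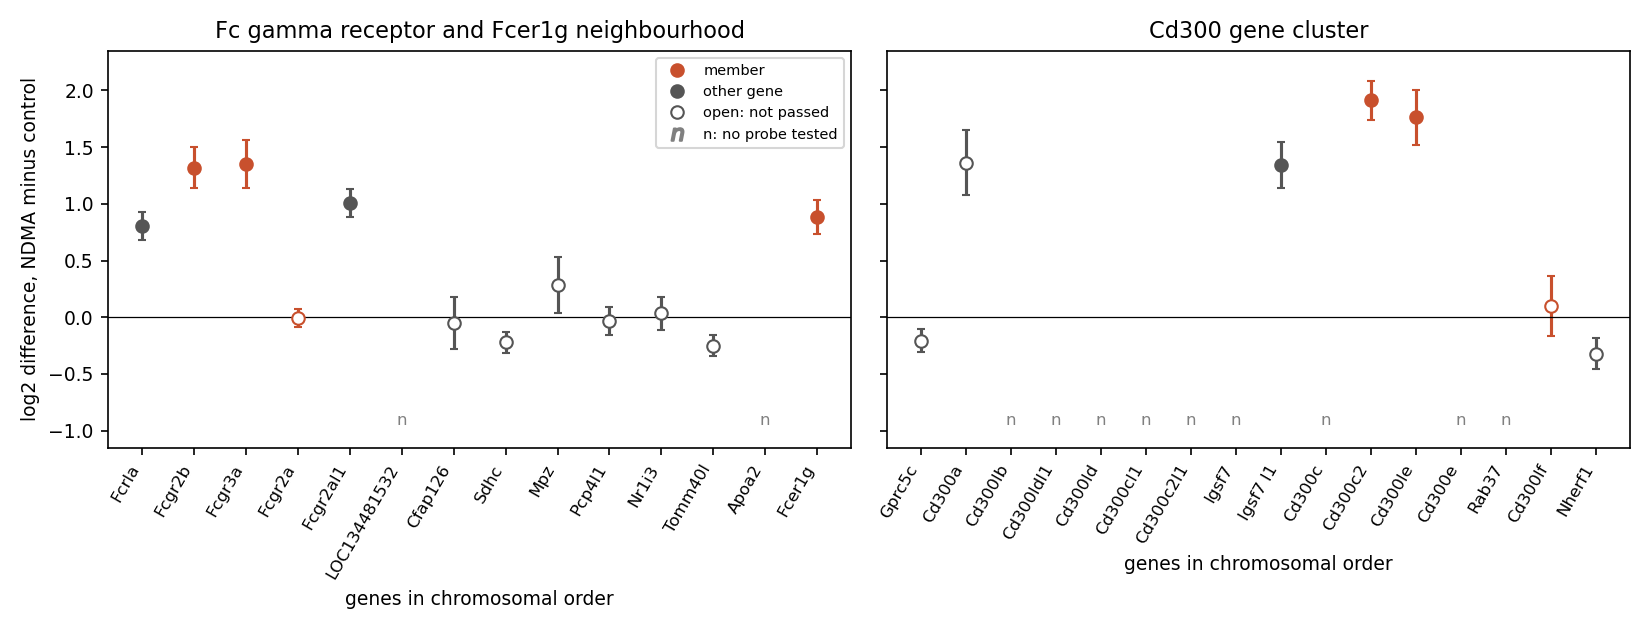
Log2 difference, NDMA minus control, with SE bars, for genes in chromosomal order in the Fc receptor to Fcer1g interval (left) and the Cd300 cluster (right); red marks members, filled points passed an adjusted p of 0.05, and n marks genes with no tested probe. Members at 0.88 to 1.91 share these stretches with genes such as Sdhc and Nherf1 at -0.22 and -0.32.

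The genes whose values over the 6 arrays lay nearest to the median of the members were Laptm5, Myo1f, Fermt3, Itga4, Trpv2 and Igsf6. Likeness was the mean absolute log2 difference from that median over the 6 animals, each gene taken against its own control mean, and it ran from 0.046 for Laptm5 to 0.068 for Igsf6. Their rises were 1.13 ± 0.13, 1.16 ± 0.13, 1.06 ± 0.11, 1.19 ± 0.14, 1.15 ± 0.10 and 1.01 ± 0.12 in that order. Because these genes were chosen for their likeness to the members, their values are a description.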

How the data were processed

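The authors read the spots with Agilent Feature Extraction (10.7 in the submitters' processing notes, 10.7.1.1 in the headers). Each deposited processed intensity had its background and a spatial trend removed within the array and was not scaled between arrays, per the file headers. The authors' value table holds a ratio that matched the processed intensity over the array's 75th percentile (largest log2 difference 0.00174 over 190251 values) and served as an alternative. Column medians of that table were 0.112, 0.110 and 0.114 (controls) and 0.115, 0.112 and 0.114 (NDMA).

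The log2 of each processed intensity was taken minus that of the array's 75th percentile of non-control probes, 993 to 1053 on slide 1 and 1310 and 1299 on slide 2. Outlier spots were set missing (18 values among the probes tested, none of a member). A probe was kept where 1 group or both had it well above background in all 3 animals (43118 probes). RefSeq names (GRCr8) came by accession without version: 27460 probes were named and 34197 were not. Groups were compared per probe by lmFit and eBayes of limma 3.58.1 (R 4.3.3; 4 residual and 2.40 prior degrees of freedom), and a gene was called by its brightest probe. The fit was tested on simulated data. The number of arrays limits the precision.

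The members, 7 pathway lists and 11 marker lists were chosen with earlier results of these data known. Of the 265 list entries, 12 were not resolved to a symbol. The text names all members with every probe, in each pathway list the 3 genes past the threshold with the smallest p, 10 genes always (Syk, Ptpn6, Inpp5d, Hcst, Trem1, Cd300a, Cd300lg, Fcgrt, Fcer1a and Ms4a2) and the 6 genes most like the members. Other list genes and neighbours named in the text were chosen after their values were seen. Normexp used the median spot signal, with an offset of 50, because the mean signal first planned is not a column of the arrays used here. Protein sequences were not used here.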

Additional observations from a re-analysis of the deposited data

How the results depend on the processing

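The number of members that rose was 8, and 1289 probes passed in all. The members' count was 7 with normexp and with probes well above background on all 6 arrays, and 8 with quantile or median scaling, 1 probe per gene, a trended and robust variance, the authors' ratio, and outlier spots kept. With slide as a block 0 members and 82 probes passed, and that fit, like slide 1 alone, rests on NDMA animal 1 against the controls. With no detection filter 3 members and 488 probes passed. The 3 members were Tyrobp, Cd300c2 and Trem2. Leaving out each animal in turn gave 3 to 6 members and 467 to 935 probes. The replicate numbers did not pair the animals (correlations of same-numbered deviations 0.02, -0.05 and 0.01), and the replicate block gave 3 members and 511 probes. Of the 1289 probes 1080 were higher, and with normexp 943 of 1459 were. The brighter Fcgr2a probe changed sign with normexp (0.042) and quantile scaling (0.044), and ran from -0.034 to 0.044 with 1 animal left out. Cd300lf changed sign with normexp (-0.025) and ran from -0.20 to 0.32 with 1 animal left out. Neither passed the test in any of these settings. The dimmer Fcgr1a probe passed with a trended and robust variance (adjusted p = 0.0303). Over the 12 alternatives and 6 fits without 1 animal, 85 of 126 counts of list genes that rose were within 1.5 times the count reported. The dim probes of Cd300le, Cd300lf and Cd300c2 are those whose signal over background limits the comparison. For Cd300c2 the call held with normexp, but the difference fell from 1.91 to 1.35.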
